A study of Mus spretus with 8 samples.

Results

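This report covers 29 genes of cholesterol synthesis, sterol sensing and sterol uptake, listed by name and read in liver RNA of the mouse species Mus spretus. A gene was taken from the deposited table where the probe annotation gave a probe its symbol, and it was read at its brightest probe, the one with the highest mean over all arrays. By that rule 26 of the 29 genes were measured, with 37 probes among them, out of 22471 genes and 42957 probes in all. Acat2, Soat1 and Soat2 had no probe under these symbols in the annotation used here and were not analysed. The 8 mice were males of the inbred SPRET/EiJ strain, a wild-derived line, 7 weeks old in the study's design text. The DDE group (n = 4) ate Harlan diet for 30 days with 450 mg/kg of p,p'-DDE given in corn oil, and the control group (n = 4) ate that diet with the corn oil alone. p,p'-DDE is the long-lived breakdown product of the insecticide DDT. Each liver was hybridised to its own 1-colour array, and signals are the authors' normalized log2 values.

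Cells make cholesterol from acetyl-CoA through mevalonate, the isoprenoids, squalene and lanosterol, and the liver is a main site of this synthesis. When sterols are low in the endoplasmic reticulum, SCAP carries the transcription factor SREBP2 to the Golgi, where it is cut and freed to switch on nearly every gene of the pathway. When sterols are plentiful, INSIG proteins hold SCAP and SREBP2 back. Cholesterol taken up in lipoproteins leaves the lysosome through NPC2 and NPC1.

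The arrays had medians from 7.46 to 7.47 and all ended at 16, the top of the scale. The background level of an array, set from probes of olfactory and vomeronasal receptors, lay between 7.55 and 7.81, and 24 of the 26 members were above it on every array. The exceptions were Srebf2 and Lbr. Patches of spots that deviated together, called stained here, covered from 0.521% of DDE 1 to 9.50% of control 4, with 7.59% of DDE 4. Of the members' brightest probes 8 had 1 stained spot each and 18 had none. The hepatocyte markers Alb and Apoa2, both plasma proteins, lay between 15.89 and 16 on all 8 arrays. Summed hepatocyte markers lay between 18.98 and 19.12 in DDE livers, against 19.05 and 19.16 in control livers. Most of these markers were near the top of the scale, where their sum can show little difference. Summed cholangiocyte markers, for bile duct cells, spanned 9.71 to 9.89 in DDE livers, against 9.85 to 13.78 in controls, with 0 of 5 above background on all arrays and the highest value at Sox9 on a stained spot of control 4. Summed neutrophil markers spanned 10.88 to 12.10 in DDE livers, against 11.15 to 13.82 in controls, the highest with S100a8 at 13.54 on a stained spot of control 3, and with Elane the brightest (8.65 ± 0.24 in DDE livers, against 10.49 ± 0.93 in controls, limma adjusted p = 0.0814, with control 4 on a stained spot). Sums for Kupffer cells and macrophages (12.94 to 13.55 in DDE livers, 12.93 to 14.11 in controls, brightest Cd5l), endothelium (13.76 to 13.95 and 13.70 to 14.18, brightest Stab2), stellate cells (13.59 to 14.37, the highest with Des at 13.65 on a stained spot of DDE 4, and 13.65 to 13.94, brightest Dcn), lymphocytes (11.51 to 11.93 and 11.22 to 12.26, brightest Cd3e) and red cells (16.07 to 16.74 and 15.69 to 16.84, brightest Hba-a1) overlapped between the groups. Stained spots also entered the highest macrophage sum of DDE livers (Adgre1 at 11.53 on DDE 2). The same held for the highest lymphocyte sum of DDE livers (Cd2 at 9.93 on DDE 4). It also held for their highest endothelial sum (Clec4g at 12.24 on DDE 4) and highest neutrophil sum (Ly6g at 9.77 on DDE 3). In controls it held for the highest macrophage sum (C1qb at 10.68 on control 1) and the highest endothelial sum (Oit3 at 12.23 on control 3). Of all these markers 1 passed the test, the stellate cell gene Reln, at 7.62 ± 0.030 in DDE livers and 7.24 ± 0.11 in controls (limma adjusted p = 0.0391). Reln was above background in 2 of 4 DDE livers and 0 of 4 control livers. With control values raised to the background level its fold was 0.96, so this bound holds no rise. Among the 8 fits that left out 1 array, Reln passed without control 4 only (adjusted p up to 0.116 in the others). With a p under 0.05 before adjustment, 5 of the 9 stellate cell markers were higher in DDE livers and 1 lower, beside 22.9% and 7.79% of all 8542 genes above background. The part of other cell types in the members' values was not tested. In whole liver, fewer cells of a type and less RNA per cell cannot be told apart.

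After DDE the members of the cholesterol pathway had mean changes in both directions. By mean, 11 were higher and 15 lower in DDE livers, and of the 24 above background 9 were higher and 15 lower. Of all 8542 genes above background 5236 were higher and 3306 lower. A common direction was not tested. Of the 26 measured members 1 fell, 0 rose and 25 did not pass limma's test with Benjamini-Hochberg adjustment over all probes at 0.05. The member that fell was Ebp, the sterol isomerase, 2.32-fold lower in DDE livers. In the same comparison 3.00% of all 42957 probes were called, and among the 8542 genes above background on all arrays 5.68% were called higher and 1.50% lower. Before adjustment, 5 members were higher and 5 lower with a p under 0.05, and all 10 were among the 24 above background. The shares of all genes above background at that level were 22.9% higher and 7.79% lower. The groups did not overlap for 2 members that were higher, Mvd and Npc2, and 2 that were lower, Ebp and Sqle, against 15.9% and 5.53% of all genes above background. The median log2 change of the members was -0.03, from -1.22 at Ebp to 0.82 at Npc2. Over the 24 members above background it was -0.05, and over all genes above background 0.14. With stained spots removed and the remaining spots quantile normalized, that median of all genes became 0.02 and the median of the 26 members -0.16.

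**Figure D1:**
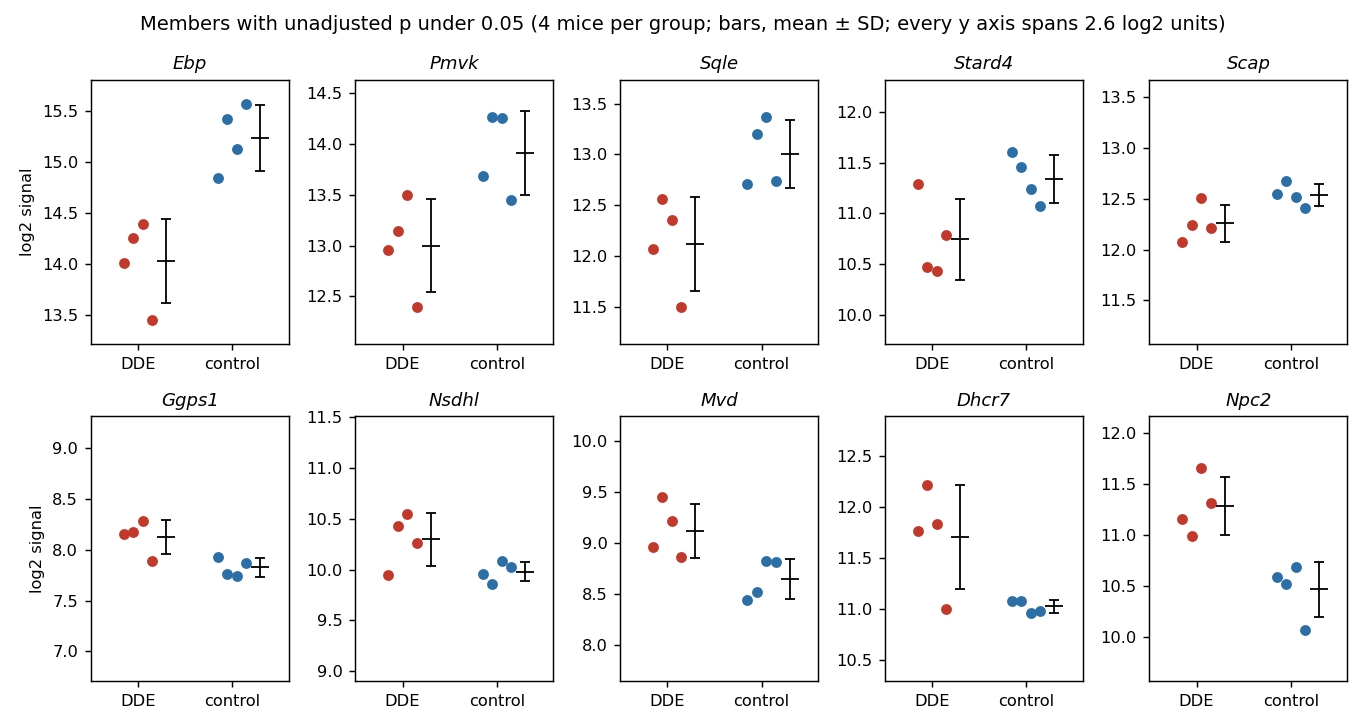
Log2 signal of the 10 members with an unadjusted p under 0.05, for each of the 4 DDE livers (red) and 4 control livers (blue), with the mean and SD of each group beside the points. The groups do not overlap for Ebp, Sqle, Mvd and Npc2, and only Ebp passed the adjusted test.

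Ebp, which moves a double bond within the sterol ring system after the removal of lanosterol's methyl groups, was the 1 step past the threshold. It had 14.01, 14.25, 14.39 and 13.45 in DDE livers 1 to 4, against 14.84, 15.42, 15.13 and 15.57 in control livers 1 to 4. Every DDE liver lay below every control liver, and the lowest DDE value was that of DDE 4. The log2 change was -1.22 ± 0.24 (SE; 95% interval -1.79 to -0.64; limma adjusted p = 0.0491). In an exact permutation test, two-sided, p was 0.0286, the smallest that 4 against 4 arrays can give. Any gene whose groups do not overlap gets this p, so it adds nothing to the separation of the values. None of its 8 spots was stained, and Ebp has 1 probe, so no second measurement of the gene bears on the value. The adjusted p sat close to the threshold: it passed in 9 of 20 alternative settings, with adjusted p from 0.0257 to 0.156. Several of these settings could hardly move Ebp, so they are not independent checks. Other probe choices read the same 1 probe, and leaving out stained spots removed none of its values. The deposited arrays already had nearly equal medians, and quantile normalization of all spots gave -1.21. Leaving out any 1 array other than DDE 4 ended the call (adjusted p from 0.0581 to 0.132), and without DDE 4 it was 0.0493. The log2 change of Ebp stayed between -1.35 and -0.91 in all 20 settings. With the replicate number as a block the adjusted p was 0.156.

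The steps on each side of Ebp did not pass the test, and whether they differed from Ebp was not tested. Hsd17b7, the sterol ketone reductase of the demethylating complex upstream of Ebp, averaged 11.17 ± 0.48 in DDE livers and 11.51 ± 0.19 in controls (limma adjusted p = 0.603). Its dimmer probe averaged 9.66 ± 0.12 in DDE livers and 10.14 ± 0.43 in controls, a log2 change of -0.48 ± 0.21 (SE, limma adjusted p = 0.352). Sc5d, the desaturase downstream of Ebp, averaged 12.54 ± 0.58 in DDE livers and 12.55 ± 0.45 in controls, a log2 change of -0.0025 with a 95% interval from -0.80 to 0.79. Dhcr7, the reductase that ends the Kandutsch-Russell branch by making cholesterol itself, had 11.76, 12.22, 11.83 and 11.00 in DDE livers 1 to 4, against 11.08, 11.08, 10.96 and 10.98 in control livers. The first 3 DDE livers lay above all controls and DDE 4 lay within them. The log2 change of Dhcr7 was 0.68 ± 0.24 (SE; limma adjusted p = 0.226), and without DDE 4 it was 0.91 ± 0.12 with an adjusted p of 0.0206. Without DDE 4 and control 4 together it was 0.90 with an adjusted p of 0.0378. Dhcr7 did not pass in the 18 other settings (adjusted p up to 0.411).

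Earlier in this stretch, from lanosterol to the sterols that Ebp acts on, no enzyme passed. Cyp51, the lanosterol demethylase and a P450 that is conserved from yeast to mammals, averaged 8.58 ± 0.24 in DDE livers and 8.59 ± 0.097 in controls, and the 95% interval of its log2 change ran from -0.31 to 0.29. Msmo1, the sterol methyl oxidase, averaged 14.94 ± 0.40 in DDE livers and 14.98 ± 0.097 in controls, with an interval from -0.50 to 0.41. These 2 intervals leave out the -1.22 measured for Ebp, as do those of Nsdhl, Lbr and Tm7sf2 at their brightest probes. The interval of Ebp itself ran from -1.79 to -0.64, and a difference of these genes from Ebp was not tested. Nsdhl, a decarboxylating sterol dehydrogenase, averaged 10.30 ± 0.26 in DDE livers and 9.98 ± 0.094 in controls at its brightest probe, where control 4 was stained (limma adjusted p = 0.331). Its dimmer probe had means of 7.91 ± 0.29 in DDE livers and 8.18 ± 0.35 in controls. Lbr, the lamin B receptor, which is also a sterol reductase, was close to background, with 7.93, 7.67, 8.70 and 7.78 in DDE livers, against 8.27, 7.70, 7.73 and 7.72 in control livers. The high DDE 3 value of Lbr came from a stained spot. Tm7sf2, the other reductase of that step, averaged 14.37 ± 0.35 in DDE livers and 14.57 ± 0.26 in controls at its brightest probe (limma adjusted p = 0.643).

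**Figure D2:**
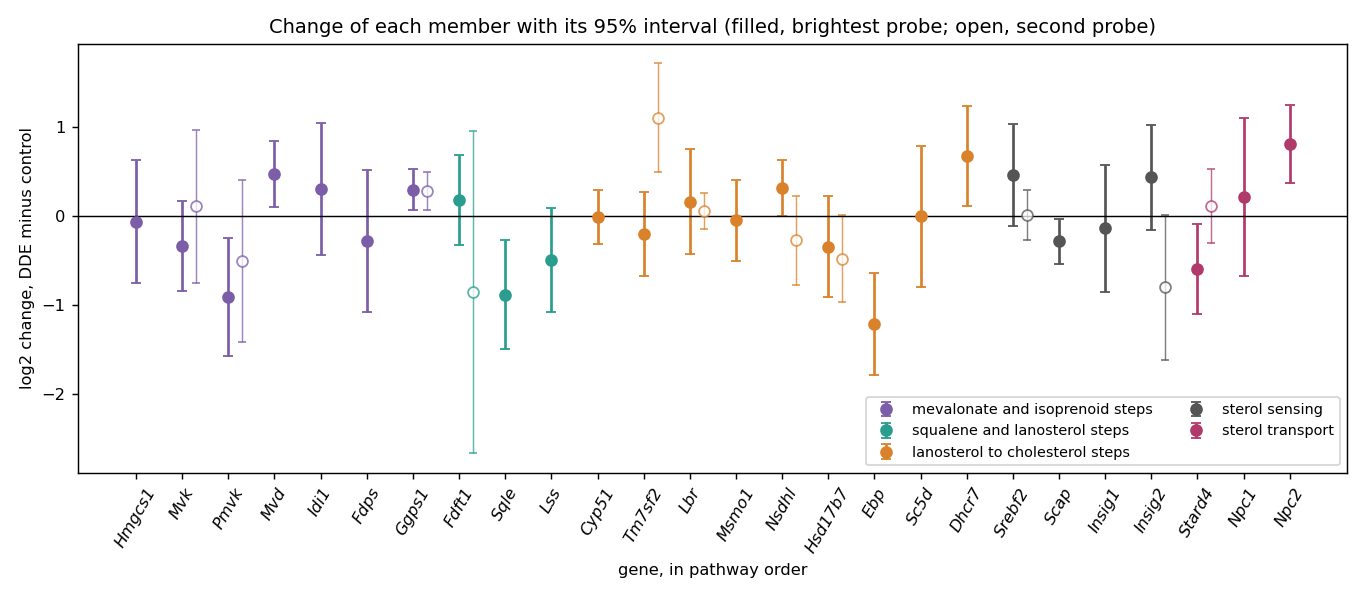
Log2 change (DDE minus control) of each of the 26 measured members with its 95% interval, in pathway order from mevalonate synthesis at the left to lysosomal export at the right. Filled points are the brightest probe and open points the second probe where a gene has 2. Ebp has the lowest filled point (-1.22) and Npc2 the highest (0.82).

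In the mevalonate and isoprenoid steps, 0 of 7 measured genes passed and the median log2 change was -0.06. Pmvk, which adds the second phosphate to mevalonate, had 12.96, 13.14, 13.50 and 12.40 in DDE livers, against 13.68, 14.26, 14.25 and 13.45 in control livers. Its groups overlapped by DDE 3 and control 4 alone. The log2 change of Pmvk was -0.91 ± 0.28 (SE; limma adjusted p = 0.165), and its dimmer probe had -0.51 ± 0.39 (limma adjusted p = 0.628). Mvd, the next enzyme, decarboxylates mevalonate diphosphate to the first isoprenoid. Mvd had 8.96, 9.45, 9.22 and 8.86 in DDE livers, against 8.44, 8.52, 8.82 and 8.81 in control livers. All DDE values of Mvd were above all control values, by 0.48 ± 0.16 (SE) on average (limma adjusted p = 0.194). These neighbouring enzymes thus had mean changes of opposite sign, neither past the threshold.

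Hmgcs1, the cytosolic synthase that feeds the mevalonate pathway and a common readout of SREBP2, averaged 13.74 ± 0.49 in DDE livers and 13.80 ± 0.41 in controls, with a 95% interval of its log2 change from -0.75 to 0.63. Idi1, the isomerase of the first isoprenoids, averaged 12.85 ± 0.48 in DDE livers and 12.54 ± 0.49 in controls. Fdps, which builds farnesyl diphosphate, averaged 14.57 ± 0.59 in DDE livers and 14.84 ± 0.46 in controls. These 3 genes varied by more than a log2 unit between mice of the same group in at least 1 group: Fdps spanned 13.99 to 15.28 in DDE livers and 14.36 to 15.36 in controls. Mvk, mevalonate kinase, averaged 12.31 ± 0.13 in DDE livers and 12.64 ± 0.45 in controls, where control 2 was both the highest value and a stained spot (limma adjusted p = 0.57). Ggps1 makes geranylgeranyl diphosphate and so leads away from sterols. Its probes had log2 changes of 0.30 ± 0.098 and 0.29 ± 0.092 (SE; limma adjusted p = 0.19 and 0.175), from signals between 7.61 and 8.28, near the background level.

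Between farnesyl diphosphate and lanosterol 0 of 3 genes passed. Sqle, squalene epoxidase, a rate-controlling enzyme that uses NADPH and oxygen, had 12.07, 12.56, 12.36 and 11.50 in DDE livers, against 12.71, 13.20, 13.37 and 12.74 in control livers. The groups did not overlap, and DDE 4 was the lowest, as for Ebp and Pmvk. The log2 change was -0.88 ± 0.26 (SE, limma adjusted p = 0.147). The exact permutation p of Sqle, 0.0286, follows from the lack of overlap. Lss, the cyclase that forms lanosterol, averaged 10.43 ± 0.40 in DDE livers and 10.92 ± 0.35 in controls (limma adjusted p = 0.442). Fdft1, squalene synthase, averaged 12.73 ± 0.41 in DDE livers and 12.55 ± 0.21 in controls, with control 4 on a stained spot (limma adjusted p = 0.688). Fdft1 and Lss, the steps just before and after Sqle, had smaller mean changes than Sqle, and that difference was not tested.

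The 4 sensing genes did not pass. Scap, the sterol-sensing escort of SREBP2, had 12.07, 12.24, 12.51 and 12.21 in DDE livers, against 12.55, 12.67, 12.52 and 12.41 in control livers, a log2 change of -0.28 ± 0.11 (SE; limma adjusted p = 0.275). Insig1, itself a target of SREBP2, had 10.98, 11.12, 10.84 and 12.12 in DDE livers, against 11.63, 11.56, 11.47 and 10.94 in control livers. DDE 4 was the highest value of Insig1 and a stained spot, and control 4 was the lowest control. With all arrays the log2 change of Insig1 was -0.14 ± 0.30 (SE; limma adjusted p = 0.839). Without DDE 4 and control 4 it was -0.57 ± 0.095 (adjusted p = 0.0429), and with stained spots removed and the remaining spots quantile normalized -0.63 ± 0.074 (adjusted p = 0.0085). It did not pass in the 18 other settings, among them the fits without DDE 4 alone (-0.42, adjusted p = 0.345) and without stained spots alone (-0.42, adjusted p = 0.311), and its adjusted p in fits without 1 array reached 0.993. Srebf2, the gene of SREBP2, was above background in 2 of 4 DDE livers and 0 of 4 control livers at its brightest probe, with 7.52, 7.61, 7.56 and 8.57 in DDE livers, against 7.56, 7.23, 7.27 and 7.33 in control livers. The DDE 4 value of Srebf2 came from a stained spot, and its other probe averaged 7.51 ± 0.16 in DDE livers and 7.50 ± 0.18 in controls. Both probes of Srebf2 therefore gave little signal to compare.

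Of the genes that move sterols within the cell, 0 of 3 measured passed. Npc2, a soluble lysosomal protein that binds cholesterol and hands it to NPC1, had 11.16, 10.99, 11.66 and 11.31 in DDE livers, against 10.59, 10.52, 10.68 and 10.07 in control livers. The groups did not overlap and none of the spots was stained. The log2 change was 0.82 ± 0.19 (SE), a fold of 1.76 (limma adjusted p = 0.0718, and 0.0523 to 0.154 over 20 alternatives). The exact permutation p of Npc2, 0.0286, follows from the lack of overlap. Npc1, the membrane protein that receives that cholesterol, had 9.32, 9.71, 9.49 and 9.31 in DDE livers, against 8.83, 8.79, 8.90 and 10.45 in control livers. The control 4 value of Npc1 was the highest of all 8 and came from a stained spot, and every DDE liver lay above the 3 other controls. The log2 change of Npc1 was 0.22 ± 0.38 (SE; limma adjusted p = 0.79) with all arrays, 0.62 ± 0.11 (adjusted p = 0.0345) with stained spots left out, and 0.62 (adjusted p = 0.0494) without control 4. It passed in 4 of 20 settings, each without that spot, and its adjusted p in the others reached 0.948. Stard4, a cytosolic sterol carrier that SREBP2 switches on, had 11.29, 10.47, 10.43 and 10.79 in DDE livers, against 11.60, 11.46, 11.24 and 11.07 in control livers. Only DDE 1 lay among the controls, and the log2 change of Stard4 was -0.60 ± 0.22 (SE; limma adjusted p = 0.237).

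The members known as targets of SREBP2 were looked at as a set, 20 measured genes, of which 19 were above background on all arrays. In this set 1 fell (Ebp), 0 rose and 19 did not pass. With a p under 0.05 before adjustment, 3 were higher and 4 lower, beside 22.9% and 7.79% of all genes above background. By mean, 6 were higher and 14 lower in DDE livers, against 5236 higher and 3306 lower of those 8542 genes, and the median log2 change was -0.10, against 0.14 for all genes above background. The median deviation of the targets from their means over the 8 arrays was -0.23, 0.01, 0.07 and -0.22 in DDE livers 1 to 4, against 0.12, 0.31, 0.03 and -0.10 in control livers 1 to 4. These per-liver values overlapped, with DDE 2 and DDE 3 among the controls. For all 26 members the medians ran from -0.12 to 0.13 in DDE livers, against -0.11 to 0.13 in control livers.

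**Figure D3:**
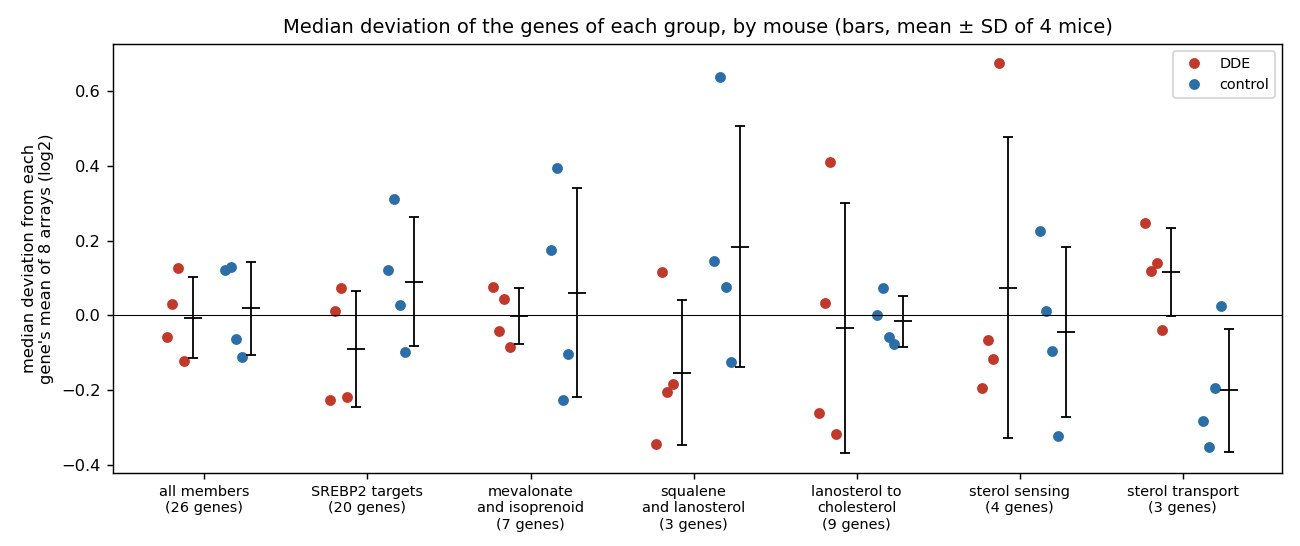
For each liver, the median over the genes of a group of their deviation from each gene's mean of all 8 arrays (log2), with DDE livers in red, control livers in blue, and the mean and SD of 4 livers as bars. The groups of livers overlap in all 7 gene groups shown.

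For 11 members a second probe was on the array, and in 6 of them the probes had mean changes of opposite sign: Mvk, Fdft1, Tm7sf2, Nsdhl, Insig2 and Stard4. The clearest was Tm7sf2. Its brightest probe had 14.16, 14.34, 14.87 and 14.12 in DDE livers, against 14.36, 14.36, 14.88 and 14.68 in control livers. Its second probe had 13.07, 13.45, 13.91 and 13.57 in DDE livers, against 12.69, 12.69, 12.44 and 11.75 in control livers. The second probe showed every DDE liver above every control, by 1.11 ± 0.26 (SE; limma adjusted p = 0.0783), while the first overlapped and changed by -0.20 ± 0.20. The signal of the brightest probe minus that of the second was 0.55 to 1.09 in DDE livers, against 1.67 to 2.93 in control livers.

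Insig2, the sterol-responsive partner of SCAP that is less dependent on SREBP2 than Insig1, showed the same in reverse, and its probes are annotated to different transcript records. The brightest probe had 12.92, 12.65, 12.31 and 13.08 in DDE livers, against 12.90, 12.32, 12.01 and 11.98 in control livers, with DDE 4 stained. The other had 11.67, 10.89, 10.75 and 11.28 in DDE livers, against 12.31, 12.46, 11.97 and 11.06 in control livers. Their log2 changes were 0.44 ± 0.25 and -0.80 ± 0.35 (SE; limma adjusted p = 0.51 and 0.342). The brightest minus the other probe was 1.25 to 1.80 in DDE livers and -0.14 to 0.92 in control livers. For both Tm7sf2 and Insig2 this difference between probes did not overlap between the groups (exact permutation p = 0.0286, and 0.157 adjusted over the 11 pairs). The share of such pairs among all genes with 2 probes was not worked out, so nothing particular to these genes is read from it. The 9 other pairs overlapped, with adjusted p from 0.189 upward. Probe sequences were not used here, so the part of each transcript that a probe reads is not known.

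**Figure D4:**
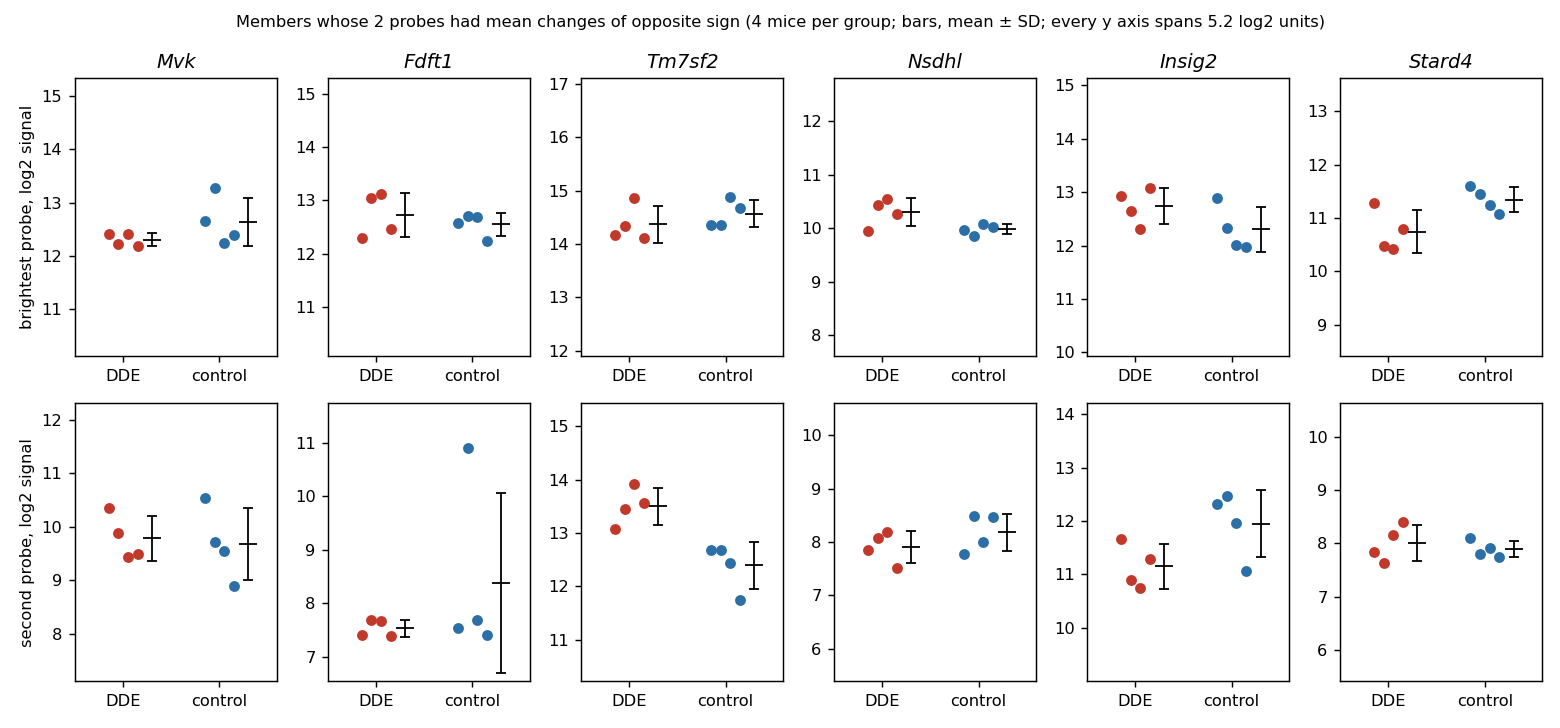
Log2 signal at the brightest probe (top row) and the second probe (bottom row) of the 6 members whose probes had mean changes of opposite sign, for 4 DDE livers (red) and 4 control livers (blue) with mean and SD. The second probe of Tm7sf2 separates the groups and its brightest probe does not, and the second probe of Fdft1 has 1 high control, control 2, on a stained spot.

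Neighbouring genes were read from lists drawn up for sterol biology. Across 6 lists 70 genes were measured, and 59 of them were above background on all arrays. Of the 70, 5 rose, 0 fell and 65 did not pass. These counts stand beside 5.68% of all genes above background called higher and 1.50% called lower, so nothing particular to the lists is read from them. Sec14l2, a lipid-binding protein that stimulates squalene epoxidation in the test tube, had 14.12, 14.22, 13.85 and 13.92 in DDE livers, against 13.13, 13.13, 13.24 and 13.12 in control livers. It was 1.83-fold higher (limma adjusted p = 0.00927), and it stayed past the threshold in all 8 fits that left out 1 array. With the replicate number as a block its adjusted p was 0.0798.

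Osbpl2, of the oxysterol-binding protein family, averaged 11.23 ± 0.20 in DDE livers and 10.38 ± 0.13 in controls, 1.80-fold higher (limma adjusted p = 0.0173), with control 4 on a stained spot. The call on Osbpl2 was lost without DDE 2 (0.0635), control 2 (0.0591) or control 3 (0.0511). Osbp, the founding member of that family, which exchanges sterol between membranes, averaged 8.70 ± 0.28 in DDE livers and 7.91 ± 0.11 in controls, 1.74-fold higher (limma adjusted p = 0.0388). With the mean of its probes the log2 change of Osbp was 0.44 (adjusted p = 0.0474), against 0.80 at the brightest probe. With these, 3 of 18 sterol carriers and binding proteins rose and 0 fell, beside 5.68% and 1.50% of all genes above background. Of the 18, 15 were above background on all arrays. The median log2 change of all 18 was 0.13, against 0.14 for all genes above background.

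Vps35, a subunit of the retromer that recycles receptors from endosomes, averaged 8.89 ± 0.19 in DDE livers and 8.15 ± 0.18 in controls, 1.68-fold higher (limma adjusted p = 0.0326), as 1 of 11 genes of lipoprotein uptake and lysosomal release. That list had a median log2 change of 0.39, against 0.14 for all genes above background. With a p under 0.05 before adjustment it had 6 higher genes and 0 lower ones, beside 22.9% higher and 7.79% lower of all genes above background. Fntb, the beta subunit of farnesyltransferase, was the 1 of 17 genes of isoprenoid use that rose. Fntb had 8.05, 8.13, 7.91 and 7.86 in DDE livers, against 7.56, 7.45, 7.20 and 7.32 in control livers, where no value was above background, so it was at least 1.24-fold higher (limma adjusted p = 0.031). With the mean of its 2 probes Fntb did not pass (0.19, adjusted p = 0.581). Osbp kept its call in the fit without DDE 2 only, Vps35 in the fit without DDE 4 only, and Fntb in the fits without DDE 4 or control 1, among the 8 that left out 1 array. For these 3 genes the highest adjusted p among those fits was 0.106, 0.0874 and 0.0931. With the replicate number as a block Osbpl2, Osbp, Vps35 and Fntb did not pass (adjusted p = 0.0817, 0.117, 0.0636 and 0.0801), nor did Reln (0.125).

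In the remaining lists none passed, and their counts before adjustment stand beside 22.9% higher and 7.79% lower of all genes above background. For SREBP maturation and sterol-linked degradation 0 of 11 passed. At an unadjusted p under 0.05 there were 3 higher genes and 0 lower ones, and Rnf145, a ubiquitin ligase that responds to sterols, had the smallest p (8.48 ± 0.36 in DDE livers, 7.80 ± 0.11 in controls, limma adjusted p = 0.105, and from 0.0311 without DDE 4 to 0.245 among the fits without 1 array). For sterol efflux and targets of the oxysterol receptor LXR, 0 of 7 passed, with 1 higher and 0 lower at that level, and the smallest p was that of Ces1d, a carboxylesterase of lipid droplets and the endoplasmic reticulum. Ces1d averaged 14.86 ± 0.55 in DDE livers and 13.46 ± 0.37 in controls (limma adjusted p = 0.0632, and from 0.0393 without DDE 4 to 0.162 among those fits). For oxysterol formation 0 of 6 passed, with 1 higher and 1 lower at that level. Cyp7b1, the oxysterol hydroxylase of the alternative bile acid route, averaged 14.49 ± 0.61 in DDE livers and 15.87 ± 0.18 in controls, a change with a limma adjusted p of 0.0578 (from 0.0344 without DDE 1 to 0.144 among those fits). Of these 3 genes each passed in 1 of the 8 such fits. Of its control values 3 lay within 0.1 of the highest possible signal.

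**Figure D5:**
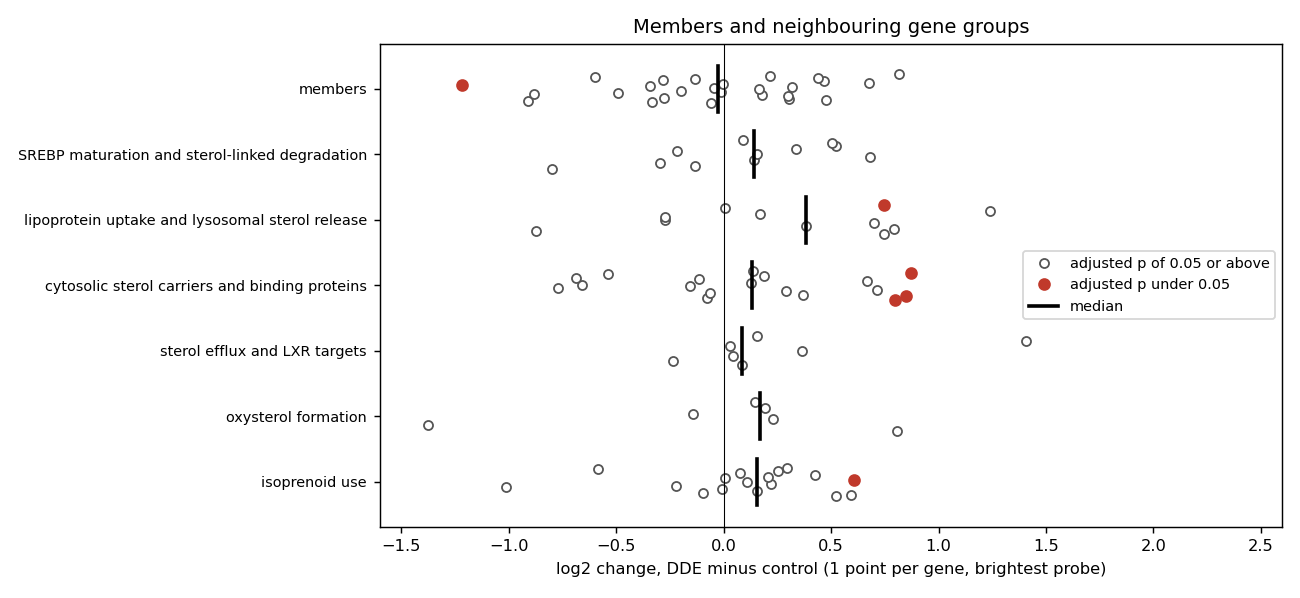
Log2 change (DDE minus control) of every measured gene at its brightest probe, for the 26 members in the top row and 6 neighbouring lists below. Filled red points passed the adjusted test, open points did not, and black bars are the medians. The 1 filled point of the members, Ebp, is to the left of 0, and the 5 in the other lists are to the right.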

How the data were processed

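Liver RNA of 8 mice was measured on 1-colour Cy3 arrays. The deposited values are log2 signals that the authors had normalized, and their background correction and normalization method were not stated in the labels or files. The values were used as deposited. Each probe was fitted with limma 3.58.1 (lmFit and eBayes, R 4.3.3), DDE minus control, 4 arrays a group, no covariate, with two-sided p-values and Benjamini-Hochberg adjustment over all 42957 probes (threshold 0.05). Symbols came from the supplied annotation table (33009 probes with 1 symbol, 9948 with none). The background level was the 0.95 quantile of 1634 olfactory and vomeronasal receptor probes, stained spots left out. Spots counted as stained if their surroundings, 7 rows by 5 columns, had a median deviation beyond 0.3. Rows and columns were inferred from the probe numbers, taken as a grid of 85 columns. Groups not above background have folds given as lower bounds.

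Members and lists were chosen with earlier results of these data known. Named were all members, list genes past the threshold (or with the smallest p where none passed), and in each marker list the genes past it and the brightest. The procedure was tested on simulated data. Alternatives were another normalization, a filter on dim probes, other variance models, array weights, a replicate block, other probe choices, leaving out stained spots and leaving out arrays.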

Additional observations from a re-analysis of the deposited data

Results flagged for a closer look

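In 3 of 52 sets of 4 values (26 members, DDE and control livers), 1 liver stood far from the other 3, with a gap above Dixon's 95% critical value for 4 samples. Chance gives about 1 in 20. Npc1 was 10.45 in control 4 and 8.79 to 8.90 in the other controls. Srebf2 was 8.57 in DDE 4 and 7.52 to 7.61 in the other DDE livers. Both of these values came from stained spots. Lbr was 8.27 in control 1 and 7.70 to 7.73 in the other controls, on a spot that was not stained.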

How the results depend on the processing

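The number of members past the threshold was 1 (Ebp) with all arrays. It was 0 with an intensity trend and robust variance, 0 with ordinary t statistics and 0 with the replicate number as a block. It was 2 without stained spots (Ebp, Npc1), 3 without stained spots and with quantile normalization (Ebp, Insig1, Npc1) and 3 without DDE 4 and control 4 (Dhcr7, Insig1, Npc1), and it ranged from 0 to 2 when 1 array was left out. The members' median log2 change moved to -0.155 without stained spots and with quantile normalization. Ebp kept its sign in all 20 settings, which could hardly be otherwise with every DDE liver below every control liver at its only probe. The number of probes past the threshold, 1289, became 766 with 1 probe per gene, 775 with probes averaged per gene (both of 22471 genes), 2140 with array weights, 511 with trend and robust variance, 519 with ordinary t statistics, 9 with the replicate block and 2595 without stained spots and with quantile normalization. It ranged from 332 to 1596 when 1 array was left out. Of the calls 78.0% were higher with all arrays (1005 higher, 284 lower) and 58.0% (1504 higher, 1091 lower) without stained spots and with quantile normalization. Same-numbered livers did not deviate together throughout (r over genes of 0.22, 0.11, 0.12 and -0.08), so the numbers were not taken to pair them. DDE 1 and DDE 2 correlated best with the control of their own number, DDE 3 with control 4 and DDE 4 with control 1. Stained spots, signals near background (Srebf2, Lbr, Ggps1) and 4 arrays a group limit the precision. The causes of these changes were not tested.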
